A study of Mus musculus with 26 samples.

Results

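The Fc receptors for immunoglobulin, 6 of the 52636 genes counted, were followed through 26 RNA-seq libraries of mouse microglia, the resident macrophages of the brain. The genes were chosen by symbol, matched to the Ensembl identifiers of the files: Fcgr1, Fcgr2b, Fcgr3, Fcgr4, Fcer1g and Fcgrt. The libraries came from mice in 7 genotype groups. The comparisons concern loss or reduction of Grn, which encodes the secreted lysosomal glycoprotein progranulin, and of Tmem106b, which encodes a lysosomal membrane protein. No group was KO for both genes. With Tmem106b WT there were 4 Grn KO, 5 Grn HET and 3 Grn WT libraries. With Tmem106b HET there were 3 Grn KO, 3 Grn HET and 4 Grn WT libraries, and the 4 Tmem106b KO libraries were all Grn WT. Here n counts libraries, and the replicate numbers only name libraries within a group, in the order in which they are listed. The sources used here do not give the alleles behind these genotypes, the strain, the age of the mice or the way the microglia were isolated. There were 14 libraries from females and 12 from males. A dissection label read Entire for 18 libraries and Hemi for 8, words the labels do not explain.

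Fc receptors bind the constant part of antibodies. In the mouse, Fcgr1, Fcgr3 and Fcgr4 encode the ligand-binding chains of activating IgG receptors, with Fcgr1 the high-affinity one, and all of these need the signalling chain encoded by Fcer1g, whose ITAM motif recruits the kinase Syk and starts phagocytosis. Fcgr2b encodes the inhibitory IgG receptor, which carries an ITIM motif and recruits the lipid phosphatase encoded by Inpp5d. Fcgrt encodes the heavy chain of the neonatal Fc receptor, which pairs with beta-2-microglobulin (B2m), binds IgG in acidic endosomes and returns it to the cell surface. Microglia use these receptors to take up antibody-coated material.

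Total counts were 37.6 to 63.7 M per library. Microglia markers were present throughout: all 10, Csf1r and Selplg among them, had counts in all 26 libraries. Their summed CPM (counts scaled to a common total) was 9271 to 58812. Counts of these markers do not show that a library was free of other cells. Grn averaged 4.84 ± 7.58 CPM in Tmem106b WT Grn KO libraries (n = 4) and 3345 ± 906 CPM in Tmem106b WT Grn WT libraries (n = 3). In Tmem106b HET mice it averaged 3.23 ± 4.24 CPM in Grn KO (n = 3) and 2980 ± 811 CPM in Grn WT libraries (n = 4). Tmem106b averaged 28.2 ± 5.13 CPM in Tmem106b KO Grn WT libraries (n = 4) and 77.6 ± 10.1 CPM in Tmem106b WT Grn WT libraries (n = 3). A pair of libraries stood apart in neuron markers, Tmem106b HET Grn KO replicate 3 and Tmem106b KO Grn WT replicate 2. Their neuron markers, led by Snap25, Syp and Syt1, summed to 7542 and 8207 CPM, against 56.8 to 3116 CPM in the other libraries, and their microglia markers summed to 9271 and 10138 CPM, against 21801 CPM or more in the others. Both were Hemi libraries of males. Sums of other cell types' markers ranged over the libraries from 55.6 to 694 CPM for border macrophages, 0.021 to 78.7 for monocytes, 0 to 39.8 for neutrophils, 0 to 182 for mast cells and basophils, 0.741 to 163 for T and NK cells, 174 to 1566 for B cells, and 361 to 2059 for dendritic cells, whose list shares Siglech with microglia. They were 546 to 25624 CPM for oligodendrocytes, 347 to 1440 for astrocytes, 0.259 to 593 for endothelial cells and 48.0 to 43587 for choroid plexus. The highest choroid plexus sum, in Tmem106b WT Grn HET replicate 5, exceeded that library's microglia sum of 37114 CPM. The highest oligodendrocyte sum was in Tmem106b HET Grn WT replicate 3, whose microglia markers summed to 39461 CPM. Of the 8 neutrophil markers, Ly6g had no count in any library, and Retnlg, the highest, had counts in 18 libraries and reached 39.8 CPM.

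The 6 genes lie in 3 places of GRCm38. Fcgr2b (ENSMUSG00000026656, chromosome 1, 170958617 to 170976547, minus strand), Fcgr4 (ENSMUSG00000059089, chromosome 1, 171018920 to 171029761, plus strand), Fcgr3 (ENSMUSG00000059498, chromosome 1, 171051174 to 171064935, minus strand) and Fcer1g (ENSMUSG00000058715, chromosome 1, 171229572 to 171234365, minus strand) are neighbours on chromosome 1. Fcgr1 (ENSMUSG00000015947) is on chromosome 3, 96282909 to 96293969, and Fcgrt (ENSMUSG00000003420) on chromosome 7, 45092990 to 45103851, both on the minus strand. Genes that overlap Fcgr2b (Gm38204), Fcgr3 (Mir6546), Fcgr4 (Gm26110) and Fcgrt (Gm45669) had at most 5, 2, 1 and 26 counts in any library.

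Fcgr2b and Fcgr3 are close copies in their extracellular part, and this bears on how far their counts can be told apart. The longest run that annotated transcripts of both share exactly, shown because a read lying inside it cannot be assigned to either gene, is 129 bases long, all of it coding, and spans the junction of exons 3 and 4 in the transcripts compared (GENCODE vM21, GRCm38; in Fcgr2b between chr1:170966674-170968081, in Fcgr3 between chr1:171054167-171057792, both minus strand, with an intron in between).
Fcgr2b and Fcgr3: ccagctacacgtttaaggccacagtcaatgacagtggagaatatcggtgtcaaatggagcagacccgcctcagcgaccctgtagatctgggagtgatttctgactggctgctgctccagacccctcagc
Of the 1733 distinct stretches of 50 bases in Fcgr3 transcripts, 166 (9.58%) also occur in Fcgr2b, and 94 (5.42%) of the stretches of 75 bases do. No other pair of the 6 genes shares a stretch of 50 bases. The sources used here do not say how reads shared between genes were counted, so a part of the Fcgr2b count may come from Fcgr3 or the reverse.

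The promoters of the 3 activating chains are shown because each held a match of a motif searched for, and those of the other 3 genes held none. All 6 genes had a promoter in the RefSeq table (GRCm38.p6, 250 bases before to 50 after the gene start). They were searched on both strands for GAGGAA, the core bound by PU.1, an ETS factor of macrophages, for TTCNNNGAA, an inverted repeat of the STAT type, and for CACGTG, the E-box read by the lysosomal MiT/TFE factors. The table lists 2 promoters for Fcgr3, of which the first was used. Its start lies inside the gene as annotated by GENCODE, well away from the outer end given above. Capitals mark matches.
Fcgr1 (chr3:96293920-96294219, minus strand): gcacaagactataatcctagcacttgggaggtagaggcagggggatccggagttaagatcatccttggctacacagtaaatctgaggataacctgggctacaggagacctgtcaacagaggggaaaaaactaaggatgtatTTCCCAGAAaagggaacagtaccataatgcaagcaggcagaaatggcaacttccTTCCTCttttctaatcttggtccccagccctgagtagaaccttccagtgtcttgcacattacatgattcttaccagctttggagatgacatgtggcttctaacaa
Fcgr3 (chr1:171059354-171059653, minus strand): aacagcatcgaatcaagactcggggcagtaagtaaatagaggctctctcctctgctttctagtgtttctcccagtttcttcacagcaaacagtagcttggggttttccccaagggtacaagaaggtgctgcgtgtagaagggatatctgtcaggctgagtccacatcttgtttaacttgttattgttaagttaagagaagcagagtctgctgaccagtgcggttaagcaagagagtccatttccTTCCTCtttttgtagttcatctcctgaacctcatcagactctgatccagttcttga
Fcgr4 (chr1:171018676-171018975, plus strand): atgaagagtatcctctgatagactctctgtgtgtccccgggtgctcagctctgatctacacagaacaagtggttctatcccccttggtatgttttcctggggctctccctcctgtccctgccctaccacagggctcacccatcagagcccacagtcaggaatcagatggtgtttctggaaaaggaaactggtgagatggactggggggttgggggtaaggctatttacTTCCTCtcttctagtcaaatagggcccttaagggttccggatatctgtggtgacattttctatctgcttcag
Each of these 3 promoters held GAGGAA once, on the opposite strand as TTCCTC, beginning at positions -55 in Fcgr1, -6 in Fcgr3 and -22 in Fcgr4, counted from the RefSeq start of each window. Fcgr1 also held TTCCCAGAA at position -109, which fits the STAT-type repeat. Of 32851 promoters in the table, 28.3% held GAGGAA, 8.3% the repeat and 7.15% the E-box. The promoters of Fcgr2b, Fcer1g and Fcgrt held none of the 3 motifs in this window, and no promoter of the 6 held the E-box. The longest run shared by any pair of the 6 promoters was the 14 bases ttccttcctctttt of Fcgr1 and Fcgr3, around the GAGGAA match, and other pairs shared runs of at most 10 bases. A match describes the letters and was not tested for binding.

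Compared per length, with the deposited RPKM (reads scaled by gene length and library total), the signalling chain and the low-affinity activating receptor were far above the others. Over 26 libraries Fcer1g averaged 1303 RPKM and Fcgr3 1003 RPKM, followed by Fcgrt with 92.5, Fcgr2b with 65.2, Fcgr1 with 60.1 and Fcgr4 with 13.3. In Tmem106b WT Grn KO libraries (n = 4) the order was Fcer1g with 1797 ± 279 RPKM, Fcgr3 with 877 ± 154, Fcgr2b with 66.8 ± 11.0, Fcgrt with 63.9 ± 15.0, Fcgr1 with 49.7 ± 8.92 and Fcgr4 with 11.9 ± 3.23 (mean ± SD). In Tmem106b WT Grn WT libraries (n = 3) it was Fcer1g with 1361 ± 452 RPKM, Fcgr3 with 1248 ± 172, Fcgrt with 106 ± 18.5, Fcgr1 with 70.9 ± 11.6, Fcgr2b with 68.1 ± 16.2 and Fcgr4 with 14.1 ± 4.68. Fcer1g and Fcgr3 lay within their spread of each other in Grn WT and apart in Grn KO, and Fcgr2b and Fcgr1 lay within theirs in Grn WT. Fcgrt ranked above Fcgr2b in Grn WT and beside it in Grn KO.

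**Figure D1:**
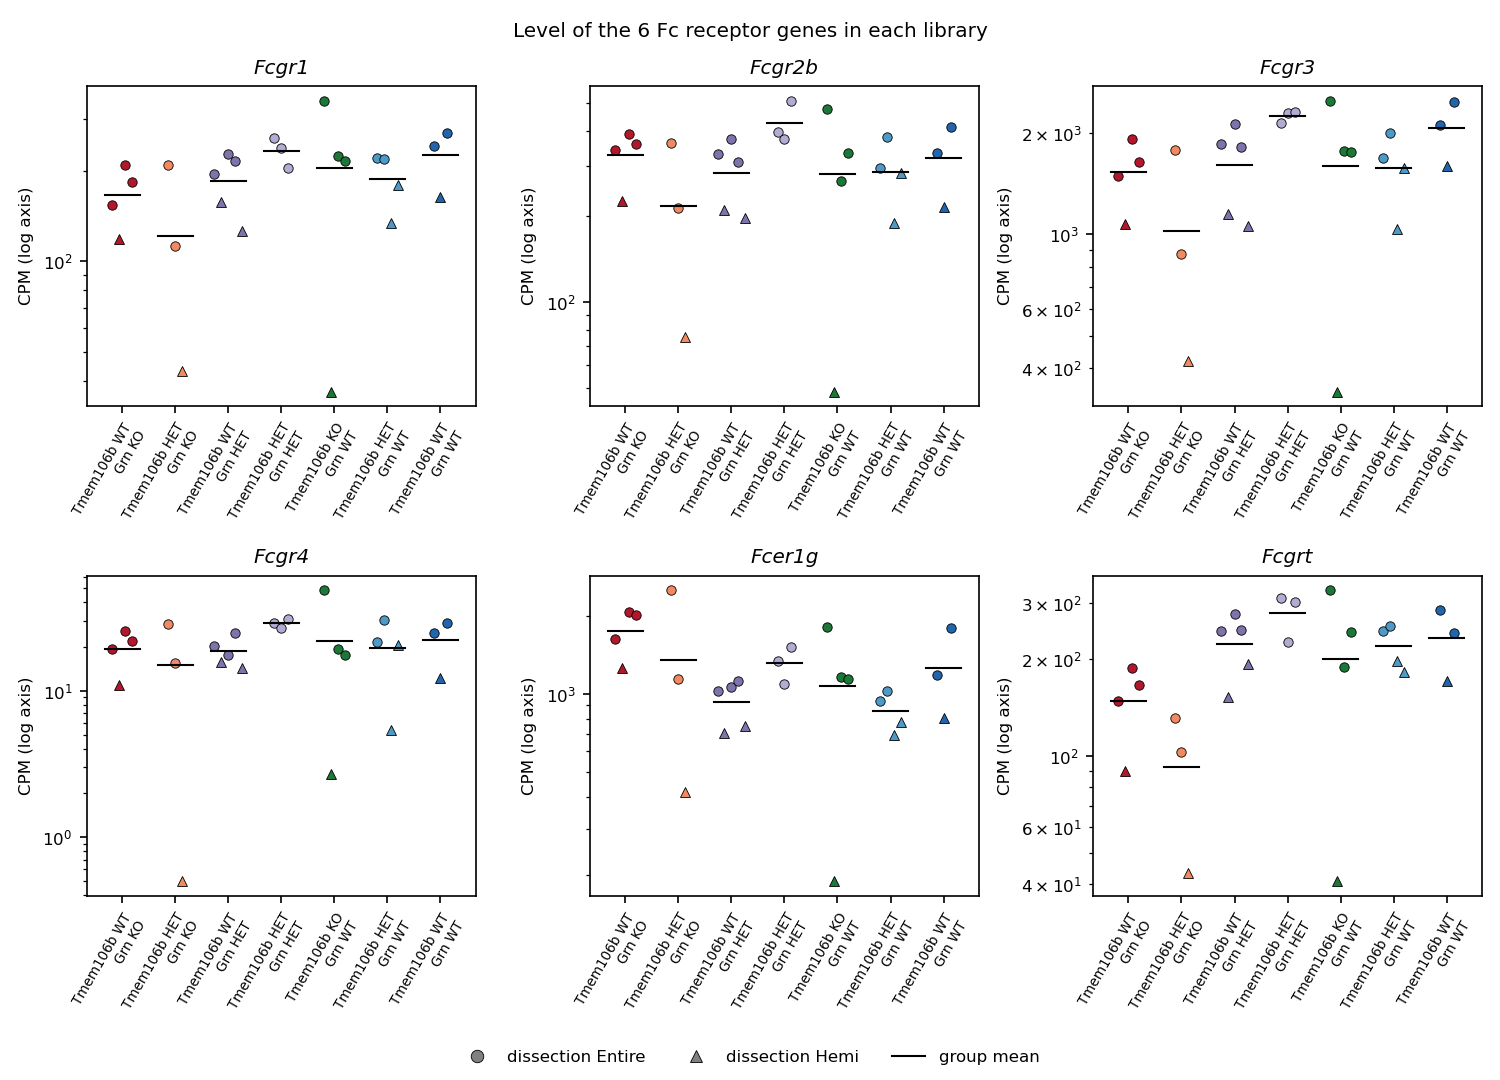
CPM of the 6 genes in each library (log axis), by genotype group, with circles for Entire and triangles for Hemi libraries and a bar at the group mean. Hemi libraries lie at the bottom of every group that has both labels, and Fcgrt lies lowest in the Grn KO groups, with 1 Tmem106b KO library at 40.7 CPM as low as they are.

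The dissection label went with all 6 genes. Of the 7 groups, 6 held both labels, and in each of these 6 every Hemi library lay below every Entire library for each of the 6 genes. The share of all genes that did so was not computed, so this cannot be called particular to the Fc receptor genes. In Tmem106b WT Grn WT, for instance, the Hemi library had 1600 CPM of Fcgr3 and 171 CPM of Fcgrt, and the Entire libraries had 2114 and 2476 CPM of Fcgr3 and 284 and 242 CPM of Fcgrt. The microglia markers summed to 46351 CPM in that Hemi library and to 57190 and 57885 CPM in those Entire libraries. In bulk RNA, fewer cells of a type and less RNA per cell cannot be told apart. The tests below carry sex and dissection as covariates. Among Tmem106b HET mice every Grn KO and Grn WT female was Entire and every male Hemi, so sex and dissection cannot be told apart within that comparison.

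Loss of Grn in Tmem106b WT mice left the 6 genes within the reach of the library spread, although they did not all lean the same way. The binding chains Fcgr1, Fcgr3 and Fcgr4 and the heavy chain Fcgrt had lower means in Grn KO, Fcgr2b had a similar mean, and Fcer1g had a higher one. In edgeR, 0 of 6 passed, where 0.576% of the 21371 genes tested passed. The groups overlapped in all 6 genes, where 16.2% of all genes had groups that did not. At an unadjusted p under 0.05, 1 of 6 passed (Fcgrt), against 12.4% of all genes, and DESeq2 and limma-voom also called 0 of 6, against 5.47% and 0.828% of all genes.

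Fcgr3, the low-affinity activating receptor, had 1495, 1073, 1917 and 1636 CPM in the Tmem106b WT Grn KO libraries, against 2114, 1600 and 2476 CPM in the Tmem106b WT Grn WT libraries. The groups overlapped, with the Hemi library lowest in each, and the difference did not pass (log2 fold change -0.61, SE 0.32, adjusted p = 0.453). Fcgr1, the high-affinity receptor, had 154, 119, 210 and 184 CPM in Grn KO and 244, 165 and 269 CPM in Grn WT libraries. The highest Grn KO libraries reached above the lowest Grn WT library, and Fcgr1 did not pass either (-0.63, SE 0.35, adjusted p = 0.48). Fcgr4 had 10.9 to 25.7 CPM (median 20.5) in Grn KO and 12.2 to 29.0 CPM (median 24.8) in Grn WT libraries, which overlapped almost fully (-0.47, SE 0.66, adjusted p = 0.841).

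Fcgr2b, the inhibitory receptor, had 342, 227, 389 and 360 CPM in Grn KO and 333, 216 and 412 CPM in Grn WT libraries of Tmem106b WT mice. These ranges nearly coincide (-0.10, SE 0.36, adjusted p = 0.95). Fcer1g, the shared signalling chain, had 1624, 1261, 2068 and 2010 CPM in Grn KO, against 1184, 802 and 1790 CPM in Grn WT. The Hemi Grn KO library lay above 2 of the 3 Grn WT libraries, but Grn WT replicate 3 lay among the Grn KO libraries and the difference did not pass (0.36, SE 0.40, adjusted p = 0.782). Fcgrt had 148, 89.6, 188 and 167 CPM in Grn KO and 284, 171 and 242 CPM in Grn WT libraries. All but 1 Grn KO library lay below all Grn WT libraries (-0.78, SE 0.32, unadjusted p = 0.024, adjusted p = 0.318). Fitted on these groups alone, Fcgrt passed (-0.90, adjusted p = 0.0388).

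With Tmem106b HET, loss of Grn lowered Fcgrt to about a fitted 0.341 of its Grn WT level, and it was the only 1 of the 6 genes to pass in edgeR. All genes gave a larger background in this comparison: 14.5% of all genes passed, 6.05% as lower. At an unadjusted p under 0.05, 4 of 6 passed, against 29.8% of all genes. Fcgrt had 131, 103 and 43.3 CPM in the Tmem106b HET Grn KO libraries, against 245, 254, 198 and 182 CPM in the Tmem106b HET Grn WT libraries. Every Grn KO library lay below every Grn WT library, as 9.37% of all genes also did, and the log2 fold change was -1.55 (SE 0.33, unadjusted p = 0.000159, adjusted p = 0.00621). The lowest value came from replicate 3, the Grn KO library rich in neuron markers. Without it the log2 fold change was -1.35 (adjusted p = 0.056), and without both neuron-rich libraries of the series it was -1.23 (adjusted p = 0.00276). Among Entire libraries alone, which leaves 2 Grn KO and 2 Grn WT libraries here, it was -1.13 (adjusted p = 0.00944). The call was lost without covariates (-1.25, adjusted p = 0.142), with sex as the only covariate (-1.34, adjusted p = 0.112) and with neuron, oligodendrocyte and choroid plexus marker sums as covariates (-1.19, adjusted p = 0.406). The microglia markers themselves summed to 9271 to 31513 CPM in Tmem106b HET Grn KO and 39461 to 58455 CPM in Tmem106b HET Grn WT libraries, without overlap, and their part in the result cannot be told apart from the genotype.

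The activating receptors had lower means in these Grn KO libraries but did not pass. Fcgr3 had 1777, 875 and 420 CPM in Tmem106b HET Grn KO, against 1689, 1994, 1038 and 1575 CPM in Tmem106b HET Grn WT libraries (log2 fold change -0.99, SE 0.33, adjusted p = 0.0521). Fcgr1 had 210, 112 and 43.0 CPM in Grn KO and 221, 220, 135 and 180 CPM in Grn WT (-1.05, SE 0.36, adjusted p = 0.0595). In both genes Grn KO replicate 1 lay among the Grn WT libraries, and the groups overlapped. DESeq2 and limma-voom called Fcgr1 and Fcgr3 as lower besides Fcgrt, so 3 of 6, against 24.6% and 18.2% of all genes. Among Entire libraries alone, 2 in each group, the log2 fold change was -0.49 for Fcgr1 (adjusted p = 0.233) and -0.51 for Fcgr3 (adjusted p = 0.233). Fcgr4 had 28.7, 15.4 and 0.497 CPM in Grn KO libraries, the last of them the neuron-rich one with 29 counts, and 21.4, 30.4, 5.35 and 20.4 CPM in Grn WT (-1.22, SE 0.72, adjusted p = 0.262). Without that library the log2 fold change was -0.41 for Fcgr4 (adjusted p = 0.762), -0.74 for Fcgr1 (adjusted p = 0.325) and -0.76 for Fcgr3 (adjusted p = 0.273).

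The inhibitory and the signalling chain differed less in Tmem106b HET mice. Fcgr2b had 363, 214 and 75.3 CPM in Grn KO and 295, 380, 190 and 284 CPM in Grn WT libraries (-0.82, SE 0.37, adjusted p = 0.147). Fcer1g had 2502, 1137 and 418 CPM in Grn KO, against 938, 1020, 690 and 776 CPM in Grn WT libraries (0.24, SE 0.40, adjusted p = 0.738). For Fcer1g both Entire Grn KO libraries lay above all Grn WT libraries and the neuron-rich Hemi library lay below them all, so the Grn KO range enclosed the Grn WT range. Without the neuron-rich library the log2 fold change was -0.51 for Fcgr2b (adjusted p = 0.554) and 0.63 for Fcer1g (adjusted p = 0.452).

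**Figure D2:**
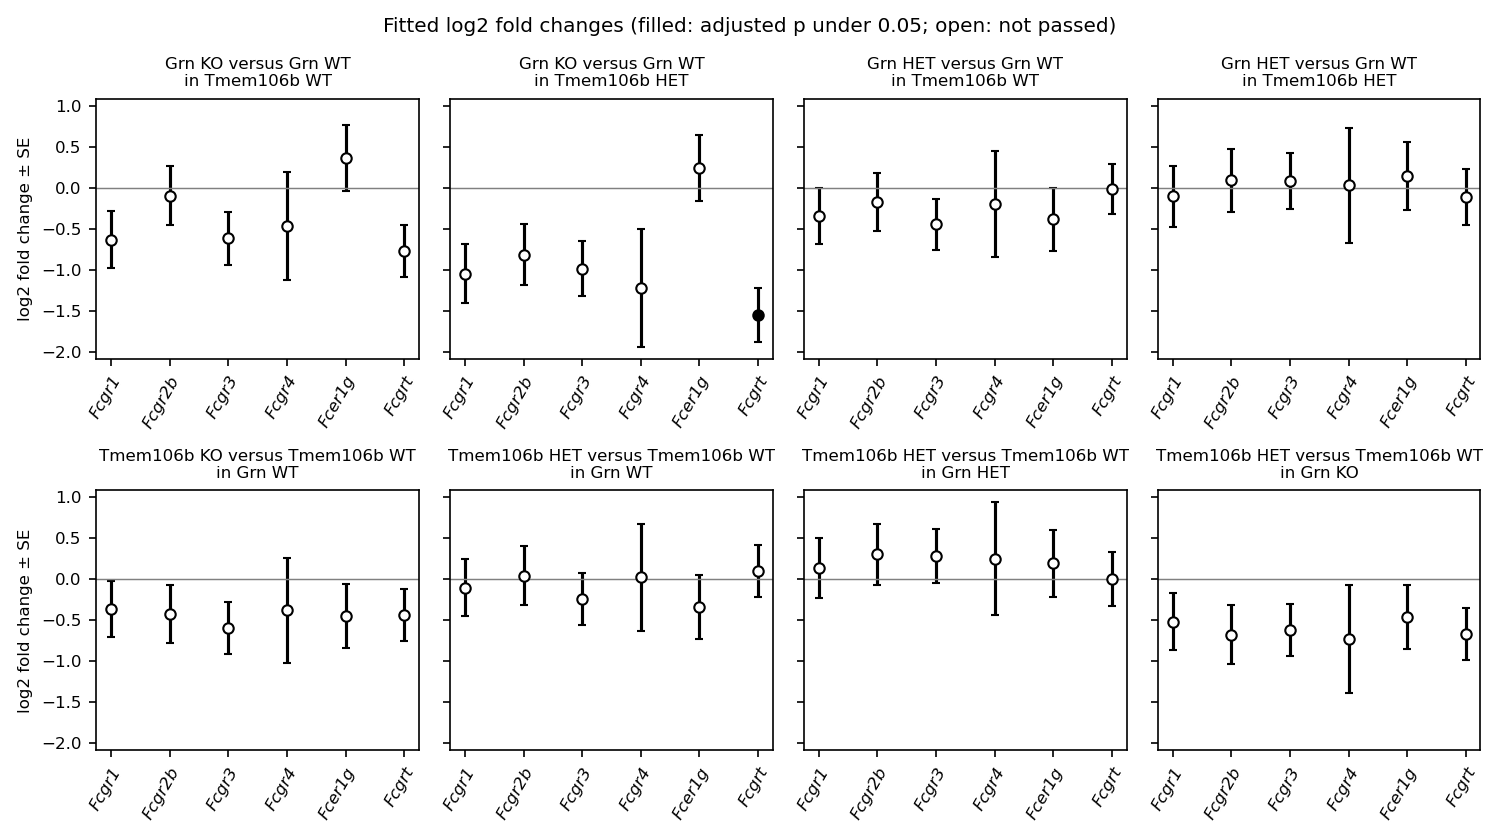
Fitted log2 fold changes of the 6 genes with their SE in the 8 pairwise comparisons, filled where the adjusted p was under 0.05. Fcgrt in Tmem106b HET mice (-1.55) is the only filled point, and Fcer1g is the only gene above 0 in both Grn KO comparisons.

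A ratio of counts within a library does not depend on how libraries are scaled. Here Fcer1g counts per Fcgr3 count separated the Grn KO libraries from the rest. Fcer1g gave 1.09, 1.17, 1.08 and 1.23 counts per Fcgr3 count in Tmem106b WT Grn KO libraries, against 0.560, 0.502 and 0.723 in Tmem106b WT Grn WT libraries. It gave 1.41, 1.30 and 0.994 in Tmem106b HET Grn KO, against 0.555, 0.511, 0.665 and 0.493 in Tmem106b HET Grn WT libraries. All 7 Grn KO libraries lay at 0.994 to 1.41, including the Hemi and the neuron-rich one, and all 19 Grn HET and Grn WT libraries, Tmem106b KO among them, at 0.477 to 0.724. Set against Fcer1g, each of the 5 other genes was lower in every Grn KO library than in every Grn WT library of Tmem106b WT mice, as 13.2% of all genes were. With Tmem106b HET, 4 of the 5 were, against 12.3% of all genes, and Fcgr4 overlapped. These ratios share the Fcer1g count, so the 5 are not separate observations, and no p is given. How many of all genes separate all 7 Grn KO from all 19 other libraries was not counted.

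Among the single ratios, Fcgr1 gave 0.084 to 0.103 counts per Fcer1g count over all Grn KO libraries and 0.135 to 0.236 over the Grn HET and Grn WT libraries. Fcgr2b gave 0.145 to 0.210 in Grn KO and 0.230 to 0.373 in the other libraries, and Fcgrt 0.0524 to 0.104 in Grn KO and 0.135 to 0.286 in the others. In each of these 3 genes the Grn KO range ended below the range of the other libraries, and the share of all genes that did so was not computed. Fcgr4 gave 0.00119 to 0.0136 in Grn KO and 0.00775 to 0.0298 in the others, which overlapped.

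The inhibitory share of the low-affinity receptors was less clear. Fcgr2b made up 18.6%, 17.4%, 16.9% and 18.0% of the summed Fcgr2b and Fcgr3 counts in Tmem106b WT Grn KO libraries, against 13.6%, 11.9% and 14.3% in Tmem106b WT Grn WT libraries, with no overlap. In Tmem106b HET mice it made up 16.9%, 19.6% and 15.2% in Grn KO and 14.8%, 16.0%, 15.4% and 15.3% in Grn WT libraries, which overlapped. Tmem106b HET Grn HET replicates reached 18.1%, so over the series the share did not separate Grn KO (15.2% to 19.6%) from the other libraries (11.9% to 18.1%). The reads these genes may share touch this share directly, and no background over all genes was computed for it.

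A further pair of ratios was chosen after the levels had been seen. Fcgrt gave 0.0207 to 0.0429 counts per count of its partner B2m in the 7 Grn KO libraries and 0.0480 to 0.117 in the 19 others, without overlap. No background over all genes was computed for this ratio either. B2m itself averaged 4225 ± 922 CPM in Tmem106b WT Grn KO (n = 4) and 3330 ± 1573 CPM in Tmem106b WT Grn WT libraries (n = 3; log2 fold change 0.28, SE 0.44, adjusted p = 0.862). Fcer1g gave 0.486 to 0.678 counts per count of Tyrobp, the other ITAM chain of microglia, in the Grn KO libraries and 0.648 to 1.06 in the others, which overlapped. Tyrobp averaged 2816 ± 608 CPM in Tmem106b WT Grn KO (n = 4) and 1365 ± 456 CPM in Tmem106b WT Grn WT libraries (n = 3; 0.88, SE 0.39, adjusted p = 0.365).

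**Figure D3:**
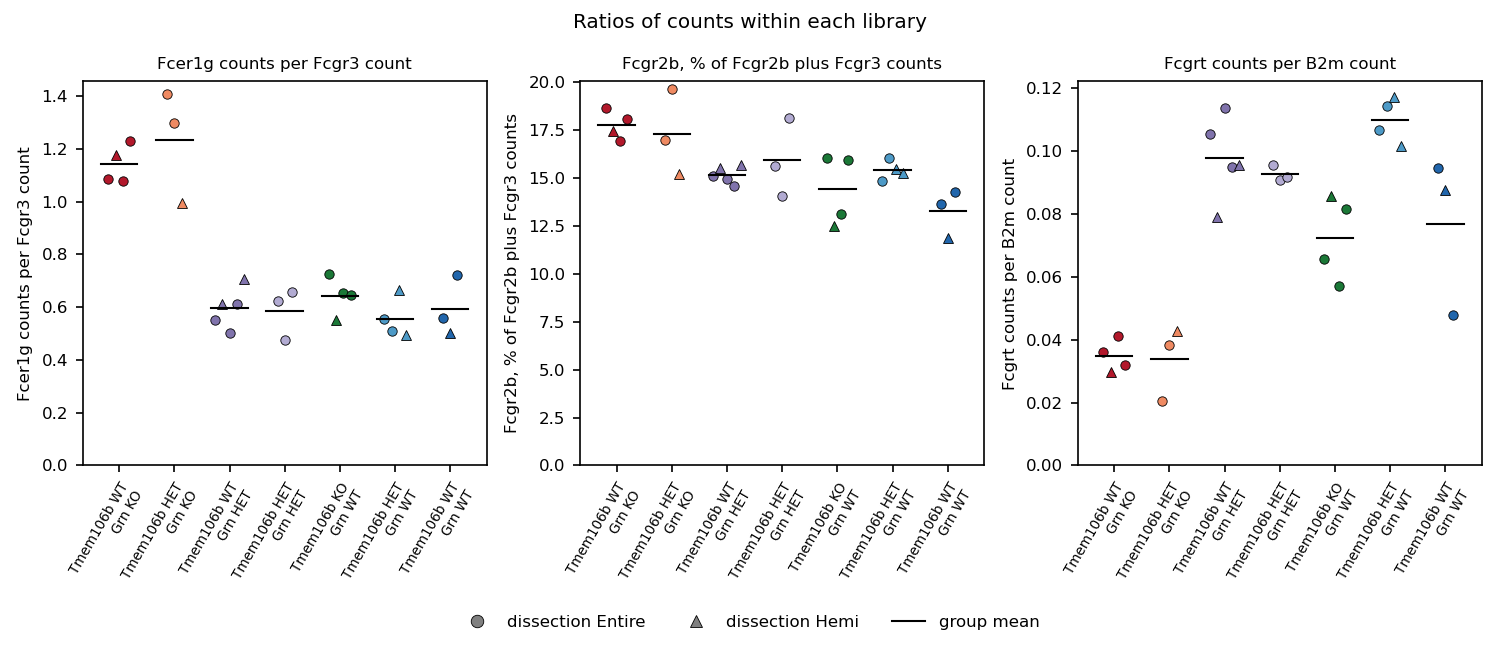
Ratios of counts within each library, by group, with circles for Entire and triangles for Hemi libraries and a bar at the group mean. The Grn KO libraries lie at 0.994 or more Fcer1g counts per Fcgr3 count and at 0.0429 or fewer Fcgrt counts per B2m count, apart from all other libraries, whereas the Fcgr2b share overlaps.

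With 1 intact Grn copy the 6 genes did not pass against Grn WT, which does not show that their levels were unchanged. The SE was 0.31 (Fcgrt) to 0.64 (Fcgr4) on the log2 scale in Tmem106b WT mice. In Tmem106b WT mice 0 of 6 passed in edgeR (0% of all genes), 0 of 6 at an unadjusted p under 0.05 (3.43% of all genes), and 0 of 6 in DESeq2 (1.44%) and limma-voom (0%), with log2 fold changes of -0.44 (Fcgr3) to -0.01 (Fcgrt). Fcgrt had 153 to 277 CPM (median 245) in the 5 Tmem106b WT Grn HET libraries, against 284, 171 and 242 CPM in the Tmem106b WT Grn WT libraries. Fcer1g had 704 to 1116 CPM (median 1023) in Grn HET, against 1184, 802 and 1790 CPM in Grn WT. Both pairs of ranges overlapped.

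For Grn HET against Grn WT in Tmem106b HET mice, too, 0 of 6 passed in edgeR (0% of all genes), DESeq2 (1.3%) or limma-voom (0%), and 0 of 6 at an unadjusted p under 0.05 (5.54%). The log2 fold changes were -0.11 (Fcgrt) to 0.14 (Fcer1g). Fcer1g had 1340, 1094 and 1519 CPM in the Tmem106b HET Grn HET libraries, against 938, 1020, 690 and 776 CPM in the Tmem106b HET Grn WT libraries. Fcgr3 had 2145, 2291 and 2306 CPM in Grn HET and 1689, 1994, 1038 and 1575 CPM in Grn WT. These 2 of the 6 genes lay higher in every Grn HET library, as 4.2% of all genes did. All 3 Grn HET libraries were Entire, whereas 2 of the 4 Grn WT libraries were Hemi, and with dissection in the fit the difference of Fcgr3 was 0.08 (SE 0.34).

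The Tmem106b KO libraries with Grn intact, in which Tmem106b counts were a fitted 0.355 of those in Tmem106b WT, had lower fitted values for all 6 genes, from -0.60 (Fcgr3) to -0.36 (Fcgr1) on the log2 scale, and 0 of 6 passed in edgeR (0.00468% of all genes), in DESeq2 (2.56%) or in limma-voom (0%), or at an unadjusted p under 0.05 (11%). Fcgrt had 327, 40.7, 189 and 243 CPM in Tmem106b KO Grn WT libraries, against 284, 171 and 242 CPM in Tmem106b WT Grn WT libraries. Fcgr1 had 345, 36.8, 226 and 216 CPM in Tmem106b KO and 244, 165 and 269 CPM in Tmem106b WT libraries. Replicate 2 was the lowest Tmem106b KO library in each of the 6 genes and is the neuron-rich one. Without it the log2 fold changes were -0.27 (Fcgr3) to -0.01 (Fcgr1). Fcer1g gave 0.552 to 0.724 counts per Fcgr3 count in Tmem106b KO and 0.477 to 0.723 in the other Grn WT and Grn HET libraries, which overlapped.

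Lowering Tmem106b to HET was compared within each Grn genotype. With Grn WT, 0 of 6 passed in edgeR (0% of all genes), DESeq2 (1.24%) or limma-voom (0%), and 0 of 6 at an unadjusted p under 0.05 (3.49%), with log2 fold changes of -0.34 (Fcer1g) to 0.10 (Fcgrt). With Grn HET, 0 of 6 passed in edgeR (0% of all genes), DESeq2 (2.41%) or limma-voom (0%), and 0 of 6 at an unadjusted p under 0.05 (6.79%), with log2 fold changes of 0.00 (Fcgrt) to 0.30 (Fcgr2b). Here Fcgr2b, Fcgr3 and Fcgr4 lay higher in each of the 3 Tmem106b HET libraries, all Entire, than in the 5 Tmem106b WT libraries, of which 2 were Hemi, and 3.15% of all genes did so.

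With Grn KO, the 6 genes were fitted lower in Tmem106b HET than in Tmem106b WT libraries, from -0.73 (Fcgr4) to -0.46 (Fcer1g), and 0 of 6 passed in edgeR (0% of all genes), DESeq2 (0.435%) or limma-voom (0%). At an unadjusted p under 0.05, 1 of 6 did (Fcgrt, -0.67, SE 0.32, adjusted p = 0.918), against 3.79% of all genes. Fcgrt had 131, 103 and 43.3 CPM in Tmem106b HET Grn KO and 148, 89.6, 188 and 167 CPM in Tmem106b WT Grn KO libraries, which overlapped. Whether the effect of Grn loss differed between Tmem106b HET and Tmem106b WT mice was tested as an interaction. In edgeR 0 of 6 genes passed (0% of all genes), 0 of 6 at an unadjusted p under 0.05 (4.29%), and 0 of 6 in DESeq2 (0.969%) and limma-voom (0%). The estimates were -0.77 (SE 0.45, adjusted p = 0.872) for Fcgrt, -0.72 (SE 0.51) for Fcgr2b and -0.13 (SE 0.55) for Fcer1g. The call of Fcgrt in Tmem106b HET mice alone therefore does not show a difference between the Tmem106b genotypes. The interaction of Grn HET with Tmem106b HET called 0 of 6 as well in edgeR (0% of all genes), DESeq2 (1.88%) and limma-voom (0%), and 0 of 6 at an unadjusted p under 0.05 (5.6%), with estimates of -0.10 (Fcgrt) to 0.53 (Fcer1g).

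Genes that act with the Fc receptors were read from lists. In Tmem106b HET mice, some genes of signalling below the receptors fell with Grn loss on both the activating and the inhibitory side. How many passed depended on which libraries were in the fit. Of 22 ITAM signalling genes, 12 passed as lower and 1 as higher, against 6.05% of all genes as lower and 14.5% in either direction. The median log2 fold change was -1.19, where that of all genes tested was -0.02. Without Tmem106b HET Grn KO replicate 3, the neuron-rich library, 2 of 22 passed as lower and 0 as higher, against 1.16% of all genes as lower and 4.91% in either direction. Without both neuron-rich libraries of the series, 10 passed as lower and 1 as higher, against 2.96% and 6.98%. The other of these libraries, Tmem106b KO Grn WT replicate 2, is in the fit but not in the groups compared. As for Fcgrt, the microglia markers summed to 9271 to 31513 CPM in these Grn KO and 39461 to 58455 CPM in these Grn WT libraries. Syk, the kinase that binds ITAMs, averaged 85.3 ± 44.8 CPM in Grn KO (n = 3) and 232 ± 57.0 CPM in Grn WT (n = 4; -1.75, SE 0.34, adjusted p = 0.00427), and without replicate 3 its log2 fold change was -1.46 (adjusted p = 0.0395). Pik3ap1, an adaptor of PI3-kinase (-1.30, adjusted p = 0.0118) and Pik3cd, a catalytic subunit of PI3-kinase (-1.51, adjusted p = 0.0128), fell too, and did not pass without replicate 3 (adjusted p = 0.0783 and 0.0868). The 1 gene that rose, named after its value was seen, was Vav3, a guanine nucleotide exchange factor, with 62.9 ± 39.8 CPM in Grn KO (n = 3) and 6.47 ± 5.87 CPM in Grn WT (n = 4; 3.32, SE 0.91, adjusted p = 0.0205). It did not pass without replicate 3 (3.15, adjusted p = 0.0848).

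Of 12 genes of ITIM and other inhibitory signalling, 6 passed as lower and 0 as higher in Tmem106b HET mice, with a median of -1.26, where 6.05% of all genes passed as lower. Without replicate 3 there were 3, and without both neuron-rich libraries 5. Inpp5d, the phosphatase recruited by the inhibitory receptor, averaged 404 ± 206 CPM in Grn KO (n = 3) and 1220 ± 180 CPM in Grn WT (n = 4; -1.89, SE 0.41, adjusted p = 0.00677), and did not pass without replicate 3 (-1.56, adjusted p = 0.0629). Pag1 (-2.43, adjusted p = 0.00224) and Csk (-1.08, adjusted p = 0.00432), which together restrain Src kinases, and the adaptor Dok3 (-1.17, adjusted p = 0.00657) fell, and these 3 also passed without replicate 3 (adjusted p = 0.015, 0.0329 and 0.041). Of 12 phagocytic actin effectors, 5 passed as lower and 0 as higher (median -0.85), among them Elmo1 (-1.27, adjusted p = 0.00224) and Dock2 (-1.65, adjusted p = 0.0127), which activate Rac, Coro1a, an actin-binding protein (-1.26, adjusted p = 0.00921), and Wasf2, a driver of branched actin (-1.77, adjusted p = 0.0135). Without replicate 3 this count was 1 (Elmo1, -1.37, adjusted p = 0.0102), and without both neuron-rich libraries 4. Of 8 transcription factors known to act on Fc gamma receptor genes, 3 passed as lower and 0 as higher (median -0.98), among them Irf8 (-1.16, adjusted p = 0.0296) and Cebpa (-1.29, adjusted p = 0.0454). Without replicate 3 none of the 8 passed in edgeR, and without both neuron-rich libraries 2 did. With those neuron, oligodendrocyte and choroid plexus marker sums as covariates, 2 genes in all passed in this comparison, so these list counts rest on a fit without them.

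In Tmem106b WT mice 0 genes of these lists passed in edgeR. At an unadjusted p under 0.05 there were 8 of 22 ITAM genes, 5 of 12 inhibitory genes, 3 of 12 actin effectors and 1 of 8 transcription factors, against 12.4% of all genes. The medians were -0.38, -0.80, -0.38 and -0.53, where that of all genes was 0.10. Syk had a log2 fold change of -0.87 (adjusted p = 0.263), Dok3 -1.03 (adjusted p = 0.0759), Csk -0.85 (adjusted p = 0.0781) and Elmo1 -0.84 (adjusted p = 0.0816). The microglia markers summed to 24866 to 32334 CPM in these Grn KO and 46351 to 57885 CPM in the Grn WT libraries, and their part in these values cannot be told apart from the genotype.

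Of 13 other Fc receptors and Fc receptor-like genes, 11 were tested, and Fcamr and Pigr, with at most 8 counts in any library, did not pass the filter on low counts. In edgeR 0 of 11 passed in either Grn KO comparison, where 0.576% of all genes passed with Tmem106b WT and 14.5% with Tmem106b HET. At an unadjusted p under 0.05 it was also 0 of 11 in both, where 12.4% and 29.8% of all genes passed. Fcrls, an Fc receptor-like gene that marks mouse microglia, averaged 2641 ± 536 CPM in Tmem106b WT Grn KO (n = 4) and 2275 ± 550 CPM in Tmem106b WT Grn WT libraries (n = 3; log2 fold change -0.00, SE 0.40, adjusted p = 1). Fcrl1 averaged 71.0 ± 15.3 CPM in these Grn KO and 54.8 ± 3.45 CPM in these Grn WT libraries (0.08, adjusted p = 0.962). Trim21, a cytosolic receptor for antibody, averaged 22.3 ± 6.93 CPM in Grn KO and 28.4 ± 10.2 CPM in Grn WT libraries (-0.63, adjusted p = 0.811). The others, Fcrl5, Fcrl6, Fcrla, Fcrlb, Fcer1a and Ms4a2 (chains of the IgE receptor), Fcer2a and Fcmr, stayed at or below 7.72 CPM in all libraries. B2m had log2 fold changes of 0.28 and 0.34 in Tmem106b WT and HET mice and did not pass (adjusted p = 0.862 and 0.65).

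Across the 26 libraries the receptor genes varied together by Pearson's r but less so by rank, with Fcer1g and Fcgrt the most unlike pair. Pearson's r of log2(CPM + 1) was 0.979 between Fcgr1 and Fcgr3, 0.963 between Fcgr2b and Fcgr3, and 0.586 between Fcer1g and Fcgrt. Spearman's rank correlation was 0.903, 0.906 and 0.199 for these pairs. For Fcgr1 and Fcer1g it was 0.466, where Pearson's r was 0.775. With the summed microglia markers r was 0.964 for Fcgrt and 0.915 for Fcgr3 but 0.536 for Fcer1g, and with the summed neuron markers it was -0.819 to -0.549. The libraries share genotype, dissection and admixed cells, so these are descriptions. Among 10803 genes, those most like each receptor gene were Lpxn (0.979), Clec4a3 (0.979) and Ly86 (0.972) for Fcgr1, Selenop (0.983), Ctss (0.980) and Cd86 (0.980) for Fcgr2b, and Clec4a3 (0.986), Rnase4 (0.976) and Clic1 (0.976) for Fcgr3. For Fcgr4 they were Phf11d (0.950), Lpxn (0.947) and Aup1 (0.941), for Fcer1g B2m (0.989), Cd9 (0.985) and Tspo (0.984), and for Fcgrt Hfe (0.976) and Ptgs1 (0.974). By rank, Phf11d with Fcgr4 reached 0.781 and Ly86 with Fcgr1 0.826. The other named genes had rank correlations of 0.897 to 0.984.

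**Figure D4:**
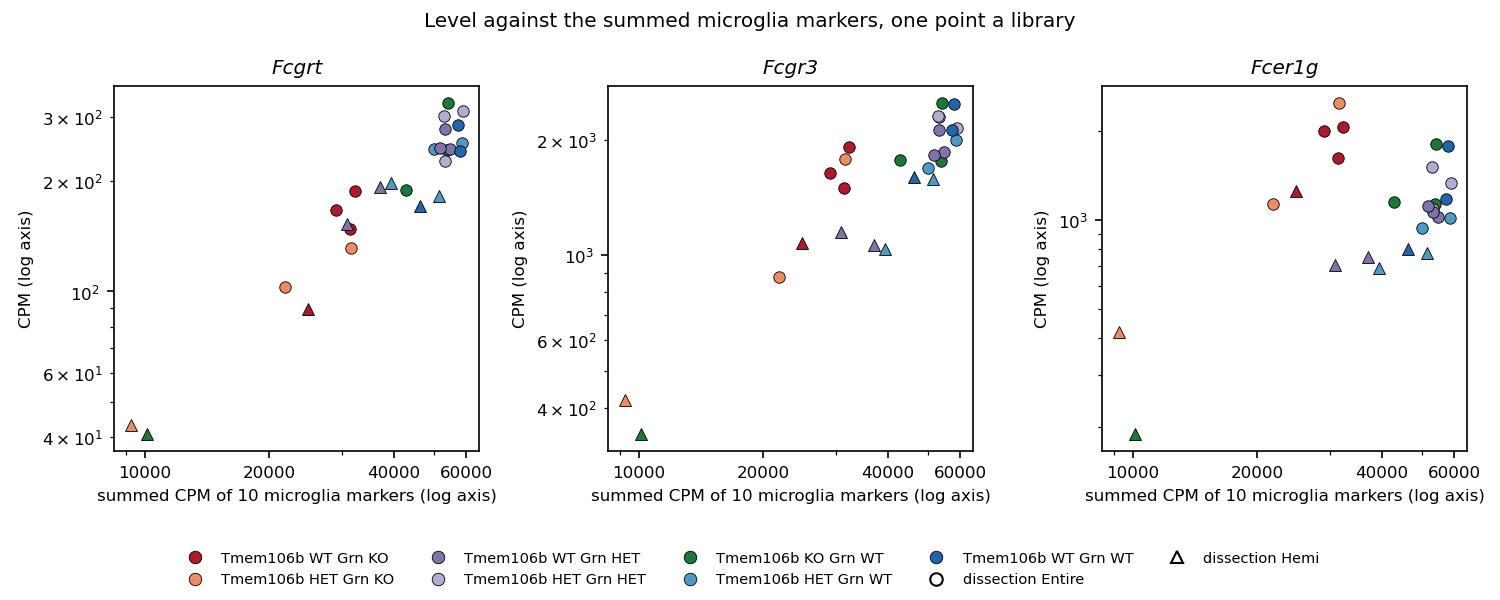
CPM of Fcgrt, Fcgr3 and Fcer1g against the summed CPM of the 10 microglia markers (both log axes), 1 point a library, coloured by group, with circles for Entire and triangles for Hemi libraries. The marker sum uses the plain library total and the gene levels the TMM-scaled one. Fcgrt follows the marker sum over all groups (r = 0.964), whereas for Fcer1g (r = 0.536) the Grn KO libraries lie above others of the same sum.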

How the data were processed

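Poly(A) RNA from mouse microglia was extracted with a micro-scale column kit and prepared with SMART-Seq v4 and Nextera XT kits, per the labels' protocols. The deposited files give unnormalized exonic counts and, from the authors, RPKM values for each Ensembl gene, per the file headers. Reads were aligned with GSNAP to GRCm38, per the submitters' processing notes, which, like the other sources used here, give no counter, strand setting or rule for shared reads. Symbols came from GENCODE vM21, which matched 52403 of 52636 genes.

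Counts were tested with edgeR 4.0.16 in R 4.3.3: edgeR's expression filter on the 7 groups (21371 genes), TMM scaling, and 1 robust quasi-likelihood fit over 26 libraries with sex and dissection as covariates. Tests were two-sided F-tests with Benjamini-Hochberg adjustment over all genes and a threshold of 0.05. The fit was tested on simulated data for Grn KO versus Grn WT in Tmem106b WT mice. It recovered 19 of 100 genes changed 2-fold and 60 of 100 changed 4-fold, and called 3 unchanged genes. A gene that did not pass may therefore still have changed. CPM values use the TMM-scaled total, with some exceptions. Sums of marker lists and the level of Retnlg use the plain library total. So does the 7.72 CPM limit of the weakest other Fc receptors. Correlations of genes with marker sums therefore set a TMM-scaled level against an unscaled sum. RPKM served only to compare genes. Alternatives included DESeq2 1.42.0, limma-voom (limma 3.58.1), other covariates (neuron, oligodendrocyte and choroid plexus marker sums among them) and leaving out libraries.

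Groups came from the genotype label. The labels do not say that libraries came from separate animals, so p-values measure the spread between libraries, which may be partly technical. The genes, lists, tests and ratios were chosen with earlier results of these data known. Genes named from a pathway list are up to 4 by smallest p in the Grn KO comparisons, all other Fc receptors that were tested, B2m, up to 3 markers by CPM, and the 3 genes most like each Fc receptor gene among those with a mean of at least 5 CPM. Some genes chosen in this way are left unreported.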

Additional observations from a re-analysis of the deposited data

How the results depend on the processing

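No paired analysis was possible because the labels carry no replicate numbers, and those used here only name libraries. Of 493 values of single genes, shares and levels under other settings, 18 changed sign, 8 passed newly, 4 lost their call and 8 moved beyond the spread.

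The count of genes called for Grn KO in Tmem106b WT mice was 123. It was 1170 in DESeq2, 58 without covariates, 45 with sex only, 318 with only the groups compared, 336 in Entire libraries and 41 with neuron, oligodendrocyte and choroid plexus marker sums as covariates, and 1 to 376 when each library was left out. Only the groups compared called 1 of the 6 Fc receptor genes. In Tmem106b HET mice the count was 3093, against 5264 in DESeq2, 224 without covariates, 279 with sex only, 1193 with only the groups compared, 1472 in Entire libraries, 2 with marker sums and 1548 without the 2 neuron-rich libraries, and 1095 to 2753 leaving out each library. Of the 6 genes it called 3 in DESeq2 and limma-voom, 0 without covariates, with sex only or with marker sums, and 0 to 3 leaving out each library: 3 without Grn KO replicate 1, 2 (Fcgr3 and Fcgrt) without Grn WT replicate 1 and 0 without Grn KO replicate 3. In the fit without Grn KO replicate 3, 4.91% of all genes passed. For the other fits with a library left out only the range of calls is given. Their counts of the 6 genes therefore have no background of their own. For the lists, with Grn KO replicate 3 left out (chosen after seeing the data), genes called lower were 2 of ITAM signalling, 3 inhibitory, 1 actin effector and 0 factors, against 12, 6, 5 and 3, and 0 ITAM genes were called higher, against 1. With both neuron-rich libraries left out, genes called lower were 10, 5, 4 and 2. Fcgrt was past the threshold in 13 of 17 settings (-1.69 to -1.13).

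DESeq2 called 307 and 278 genes for Grn HET in Tmem106b WT and HET mice, 548 for Tmem106b KO, 265, 515 and 93 for Tmem106b HET with Grn WT, HET and KO, and 207 and 402 for the interactions with Grn KO and Grn HET, where edgeR called 1 for Tmem106b KO and 0 elsewhere. Leaving out each library gave 0 to 4 for Grn HET in Tmem106b HET mice, 0 to 3 for Tmem106b KO, 0 to 8 for Tmem106b HET with Grn HET, and 0 for the others. The 1 call for Tmem106b KO became 0 with DESeq2 size factors, limma-voom, no covariates, only the groups compared, Entire libraries, marker sums, or without the 2 neuron-rich libraries.

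Changes of sign were all in uncalled values. Fcgr2b for Grn KO in Tmem106b WT mice was 0.041 without covariates and 0.14 with marker sums. Leaving out each library moved Fcer1g for Grn KO with Tmem106b HET over -0.24 (Grn KO replicate 1 out) to 0.63. For Tmem106b KO, Fcgr1 was 0.033 and Fcgr4 0.11 without the neuron-rich libraries. For the Grn KO interaction, Fcer1g was 0.19 without covariates, 0.28 with sex only, 0.66 in Entire libraries, 0.053 with marker sums, 0.32 without the neuron-rich libraries, and -0.66 to 0.22 leaving out each library, above 0 without Tmem106b HET Grn KO replicate 2 (0.038) or 3, Tmem106b HET Grn WT replicate 4 (0.031) or Tmem106b WT Grn WT replicate 1 (0.036). In Entire libraries the interaction was 0.24 for Fcgr1, 0.12 for Fcgr3 and 0.38 for Fcgr4, and without the neuron-rich libraries 0.053 for Fcgr4. The causes were not tested. Fcgr4, with as few as 29 counts, is the gene that depth limits most, and intervals from counts would cover counting error only.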
